A study of Mus musculus with 47 samples.

Results

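The Siglecs are sialic acid-binding lectins of the immunoglobulin superfamily, and 8 mouse genes of the family were followed here: Siglec1, Cd22, Cd33, Mag, Siglece, Siglecf, Siglecg and Siglech. They were taken by gene symbol from a table of 20456 genes, and each symbol matched exactly 1 row. The study asked what is lost when the histone chaperone Daxx can no longer bind one of its partners, using knock-in alleles that separate binding to the histone variant H3.3 (S226A) from binding to the chromatin remodeler Atrx (Y130A). RNA was sequenced from liver, lung and brain of mouse embryos at E18.5, whose strain the labels give as C57BL/6. The alleles were made in C57BL/6N zygotes and the founders then crossed back to C57BL/6J over 2 generations, so the background mixes both substrains. S226A embryos were homozygous for Daxx S226A, Y130A embryos were homozygous for Daxx Y130A, and each mutant was paired with wild-type (WT) embryos of its own 4 litters. Every group held 4 libraries, apart from 3 lungs of wild-type embryos from the Y130A litters, which gave 47 libraries in 12 groups. Each library of a group came from a separate embryo, and the tissues were bulk samples of flash-frozen organs, so fewer cells of a type and less RNA per cell cannot be told apart. The alleles are germline changes present in every cell, so cells of all lineages carried them.

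Most Siglecs sit on white blood cells, where they read sialic acid on the same or on neighboring cells. Cd22, Siglece, Siglecf and Siglecg carry cytoplasmic tyrosine motifs that recruit the phosphatases Shp1 (Ptpn6) and Shp2 (Ptpn11) and so damp activating signals. Siglech has no such motif and signals through the adaptor Dap12 (Tyrobp), and mouse Cd33, unlike human CD33, lacks the usual inhibitory motif and can pair with Dap12, while Siglec1 (sialoadhesin) has a long ectodomain and acts mainly in adhesion and particle capture. By cell type, Siglec1 marks tissue macrophages, Cd22 and Siglecg mark B cells, Siglecf marks eosinophils, Siglece is found on neutrophils and other myeloid cells, mouse Cd33 is found on myeloid cells, Siglech marks plasmacytoid dendritic cells and microglia, and Mag is a myelin protein of oligodendrocytes and Schwann cells. The fetal liver is the main blood-forming organ before birth.

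The libraries held 15722147 to 54885020 counted reads, with a median of 20341531 in the S226A litters and 44523912 in the Y130A litters. Levels below are normalized read counts, that is counts divided by each library's effective size (total times TMM factor) and multiplied by the geometric mean of these sizes. Tissue markers separated the tissues: Alb ranged from 2565660 to 4342390 in livers against at most 25183 in lungs and 3325 in brains. The alleles change codons of Daxx, and its transcript level had log2 fold changes between -0.12 and 0.04 in the 6 mutant comparisons (lowest adjusted P = 0.857). These counts therefore do not check the genotype labels. Wild-type liver replicate 2 of the S226A litters and Y130A liver replicate 1 stood apart by transcripts of squamous epithelium (summed level 32830 and 21530, against at most 264.4 in the other 14 livers). All 8 Siglec genes passed the filter on low counts and were among the 16892 genes tested. A gene was called when the edgeR quasi-likelihood test gave a Benjamini-Hochberg adjusted P under 0.01 together with an absolute log2 fold change over 1 and a standard error under 1, the study's stringent criteria. An adjusted P under 0.05 alone served as the looser rule.

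Siglec1 lies on chromosome 2 (GRCm38, chr2:131069220-131086765, minus strand), apart from the other 7 genes, which are on chromosome 7. Cd22 (chr7:30865402-30880342, minus strand) and Mag (chr7:30899176-30914873, minus strand) are neighbors, 18.8 kb apart. Siglecf (chr7:43351341-43359531, plus strand), Siglecg (chr7:43408204-43418358, plus strand), Cd33 (chr7:43524216-43544428, minus strand) and Siglece (chr7:43651070-43660161, minus strand) share a stretch of 309.0 kb. Siglech (chr7:55768178-55778925, plus strand) stands by itself further along the chromosome. Cd22 shares exonic bases with an antisense gene, Gm29439. Whether the counting used strand was not given in the sources used here, so part of the Cd22 reads could belong to that gene.

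Promoter windows from 250 bases before to 50 bases after the annotated start were found in RefSeq (GRCm38.p6) for 7 of the 8 genes, all but Siglec1. They were searched on both strands for the letters GAGGAA, a core recognized by the myeloid and B cell factor PU.1, and capitals mark each match below. The first window is shown because its gene was close to absent in S226A tissues, and the next 4 because they belong to the neighbors of the 309.0 kb stretch, of which Cd33 was higher in S226A liver and Siglecg lower in S226A lung.
Siglech, chr7:55767934-55768233, plus strand: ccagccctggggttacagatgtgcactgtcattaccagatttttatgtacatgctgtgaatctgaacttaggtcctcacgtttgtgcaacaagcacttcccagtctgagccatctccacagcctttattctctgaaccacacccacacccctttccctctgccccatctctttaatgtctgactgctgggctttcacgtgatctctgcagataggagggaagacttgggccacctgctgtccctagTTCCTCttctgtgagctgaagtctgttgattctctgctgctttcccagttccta
Siglecg, chr7:43407989-43408288, plus strand: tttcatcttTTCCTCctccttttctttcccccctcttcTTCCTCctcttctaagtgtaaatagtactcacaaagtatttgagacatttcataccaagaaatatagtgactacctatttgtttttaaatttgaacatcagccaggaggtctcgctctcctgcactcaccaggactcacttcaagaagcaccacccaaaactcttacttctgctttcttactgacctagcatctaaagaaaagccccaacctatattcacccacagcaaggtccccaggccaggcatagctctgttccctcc
Siglecf, chr7:43351091-43351390, plus strand: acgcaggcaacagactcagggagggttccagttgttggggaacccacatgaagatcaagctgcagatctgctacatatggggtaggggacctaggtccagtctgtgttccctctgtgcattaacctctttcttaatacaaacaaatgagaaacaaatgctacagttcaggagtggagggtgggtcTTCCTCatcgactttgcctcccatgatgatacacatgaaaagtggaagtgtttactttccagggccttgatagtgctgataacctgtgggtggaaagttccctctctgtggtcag
Cd33, chr7:43533122-43533421, minus strand: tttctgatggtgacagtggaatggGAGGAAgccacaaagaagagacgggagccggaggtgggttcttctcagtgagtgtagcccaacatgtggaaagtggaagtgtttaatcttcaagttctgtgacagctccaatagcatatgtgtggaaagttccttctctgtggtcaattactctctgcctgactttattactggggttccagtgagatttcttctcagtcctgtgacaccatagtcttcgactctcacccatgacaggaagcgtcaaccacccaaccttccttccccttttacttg
Siglece, chr7:43660112-43660411, minus strand: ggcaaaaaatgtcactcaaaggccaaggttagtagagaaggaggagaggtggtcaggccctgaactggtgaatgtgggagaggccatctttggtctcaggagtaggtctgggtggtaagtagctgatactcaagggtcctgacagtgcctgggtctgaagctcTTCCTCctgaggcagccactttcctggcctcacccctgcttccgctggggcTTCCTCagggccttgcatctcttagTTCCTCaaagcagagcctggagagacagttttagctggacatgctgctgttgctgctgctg
The Siglech window held 1 match, beginning 4 bases before the start. The windows of Siglecg, Siglecf, Cd33 and Siglece held 2, 1, 1 and 3 matches, so the letters occurred both in Cd33 and in Siglecg and Siglech. A second Siglecg start and the Cd22 window held none. Over all 32851 promoter windows of this length, 28.3% held the letters, against 8 of the 10 Siglec windows, of which the 3 of Mag and the 2 of Siglecg overlap or lie close together. By gene, 31.3% of 27025 genes held the letters in at least 1 window, as did 6 of the 7 Siglec genes. A C/EBP site (TTGCNNAA, 10.8% of windows) was found in the Siglech window and in 1 of the 3 Mag windows, and the Maf core letters (TGCTGAC, 4.67% of windows) in none of the 10. The Siglecf and Cd33 windows shared a run of 16 bases, aaagtggaagtgttta, against at most 10 bases for any other pair of these genes. The Cd33 start of this window lies inside the gene span given above, and a match or its absence is a description of these letters only.

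In wild-type embryos the family was mainly a liver family. Compared per kilobase of exon and averaged over the 8 wild-type livers, Siglec1 had the highest level at 289.8 ± 90.8 (SD, n = 8), followed by Siglece at 192 ± 26.7, Cd33 at 121 ± 19.8, Cd22 at 81.6 ± 16.3 and Siglecg at 64.9 ± 14.8. Siglecf at 23.8 ± 8.93, Siglech at 15.2 ± 5.31 and Mag at 3.60 ± 3.20 came last. The ranges of each pair of neighbors in this order overlapped. All members but Mag were lower in wild-type lung than in liver, with log2 differences from -4.91 for Cd22 to -1.97 for Cd33 (7 of 8 called, against 18.9% of all genes called lower). In brain 6 members were lower than in liver (26.9% of all genes) by log2 differences of -7.62 for Siglecg to -4.29 for Siglecf. Mag was higher in brain than in liver by 2.20 ± 0.41 (log2 difference ± SE, adjusted P = 5.20e-06, 29.2% of all genes called higher). Siglech was the exception, at 10.9 ± 2.26 per kilobase in brain and 15.2 ± 5.31 in liver (log2 difference -0.43 ± 0.50, adjusted P = 0.413). Mag, at 16.7 ± 2.54 per kilobase, and Siglech were thus the leading members in wild-type brain, and both were higher there than in lung (2 of 8, 23.1% of all genes), while the other 6 were lower in brain than in lung (25.7% of all genes). With the embryo as a block 7 of these 8 brain-lung calls remained, and Siglecf was the one lost (adjusted P = 0.0174). The Siglecf call was also kept in only 4 of 15 fits that left out a single library (adjusted P from 0.000795 to 0.0495). The Mag and Siglech ranges overlapped in brain. In wild-type lung Siglec1 (48.6 ± 30.4 per kilobase, n = 7), Cd33 (34.3 ± 14.1) and Siglece (33.7 ± 9.78) led with overlapping ranges, and the other 5 had means of 2.78 to 6.93.

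**Figure D1:**
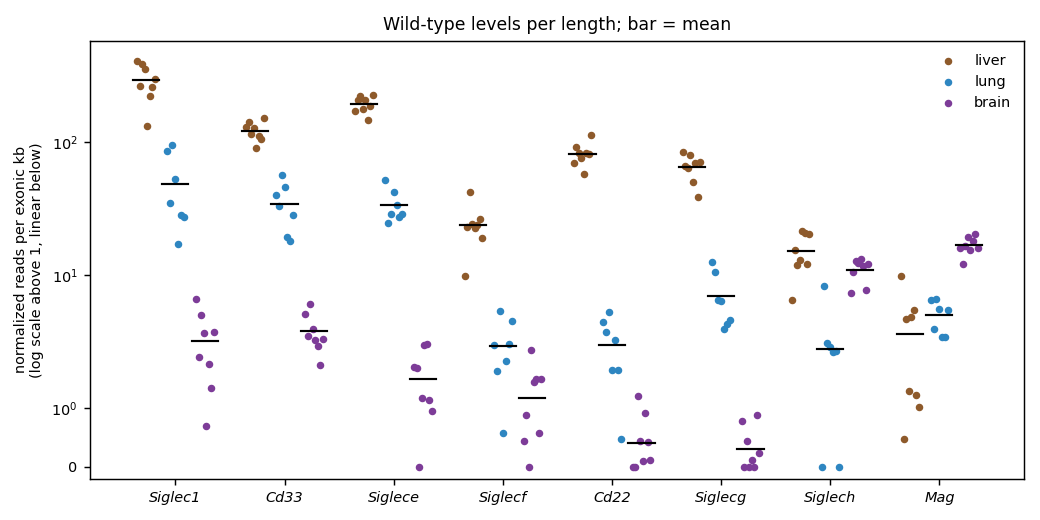
Wild-type levels of the 8 genes in liver (brown), lung (blue) and brain (purple), as normalized reads per exonic kilobase; each point is 1 library, bars are means, and the axis is logarithmic above 1. Liver points lie above the brain points for 6 genes, while Mag leads in brain and the Siglech points of liver and brain overlap, with means of 10.9 per kilobase in brain and 15.2 in liver.

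In S226A liver 3 of the 8 genes were called, against 2.1% of all genes tested. Siglec1 and Cd22 fell (0.847% of all genes were called lower) and Cd33 rose (1.26% called higher), and these calls held without any single library. With the looser rule Siglech joined them as lower, making 4 of 8 against 11.7% of all genes. For 6 genes no S226A liver lay within the range of its wild-type littermates, 3 of them lower (Siglec1, Cd22 and Siglech) and 3 higher (Cd33, Siglece and Siglecf), where 11.9% of all genes showed no overlap. The median log2 fold change of the 8 genes was -0.83, against -0.01 for all genes tested.

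**Figure D2:**
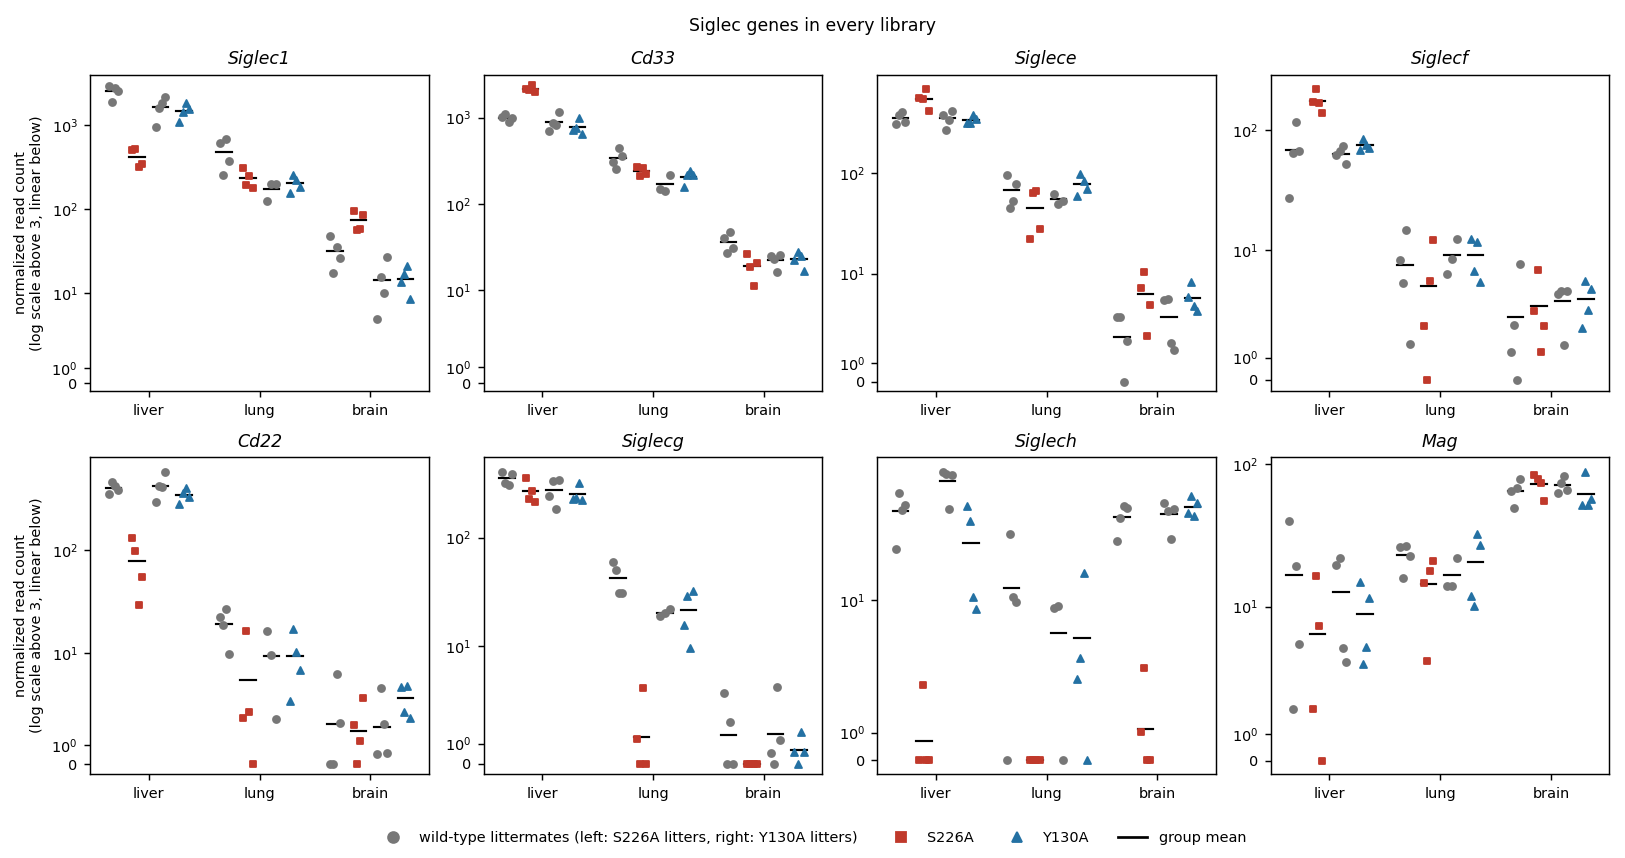
Normalized read counts of the 8 genes in all 47 libraries; within each tissue the order is wild type of the S226A litters, S226A, wild type of the Y130A litters and Y130A, bars are group means and the axis is logarithmic above 3. In liver the 4 S226A points lie below all wild-type points for Siglec1, Cd22 and Siglech and above those of their littermates for Cd33, Siglece and Siglecf.

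Siglec1, the macrophage adhesion receptor, was at 2895, 1882, 2759 and 2516 normalized counts in the wild-type livers of the S226A litters and at 504, 511, 311 and 341 in the S226A livers. Every mutant value lay under the lowest wild-type value. Its log2 fold change was -2.59 ± 0.29 (SE, adjusted P = 1.25e-08), a 6.02-fold lower level, and without the wild-type liver that carried squamous transcripts it was -2.71 (adjusted P = 1.55e-08). Siglec1 moved in the direction of the other macrophage genes: 9 of 11 resident macrophage markers were called lower, led by Vsig4, Clec4f and Cd163, and the summed level of that list was 22230 to 25310 in the wild-type and 6115 to 8511 in the S226A livers. Vsig4, a complement receptor of Kupffer cells, was at 0 in all 4 S226A livers. The part of macrophage number in the lower Siglec1 level was not tested.

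The B cell Siglecs Cd22 and Siglecg, both inhibitory co-receptors of the B cell receptor, differed from each other in S226A liver. Cd22 was at 352, 460.2, 416 and 380.4 normalized counts in the wild-type livers and at 130.4, 96.9, 29.3 and 54.9 in the S226A livers, with no overlap. Its log2 fold change was -2.36 ± 0.47 (adjusted P = 0.000408). Siglecg was at 401, 315, 306 and 380.4 in the same wild-type livers and at 356, 225, 271 and 214 in the S226A livers, which overlapped, with a log2 fold change of -0.40 ± 0.37 (adjusted P = 0.565). Both lists are in litter order, and Siglecg was lower than in the wild-type littermate in each litter. Cd22 counts per Siglecg count were 0.878 to 1.46 in the wild-type livers of these litters and 0.108 to 0.430 in the S226A livers, against 1.21 to 2.20 in wild-type and 1.24 to 1.55 in Y130A livers of the other litters. This ratio was formed after both values were seen and is given without a test. Of 10 B lineage markers, 3 were called lower (5 by the looser rule), led by Ms4a1 with a log2 fold change of -4.49 ± 0.98, and none higher; their summed level was 5383 to 6484 in wild-type and 2188 to 5073 in S226A livers.

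**Figure D3:**
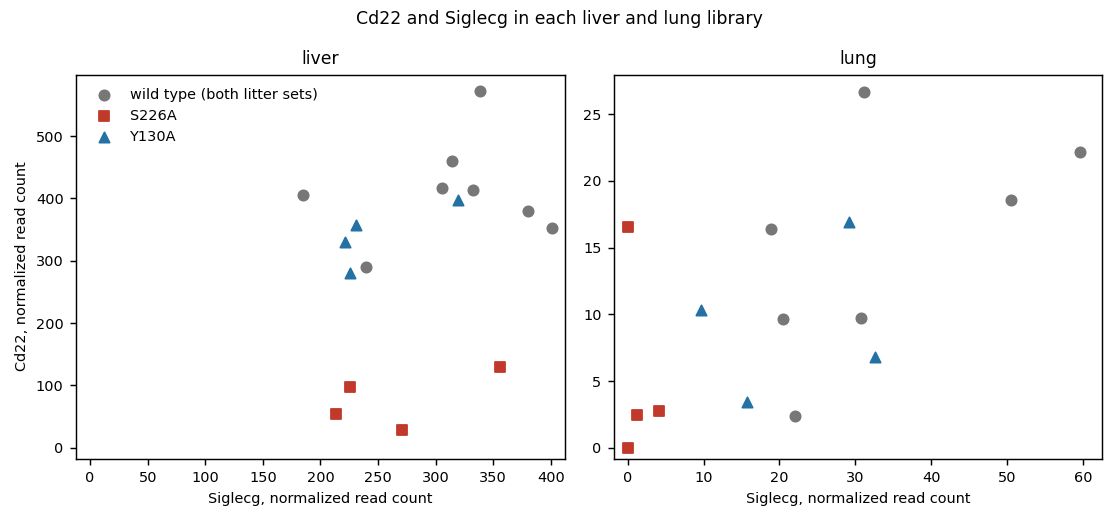
Normalized read counts of Cd22 (vertical) against Siglecg (horizontal) in each liver and lung library, wild type of both litter sets as grey circles, S226A as red squares and Y130A as blue triangles. In liver the S226A points keep Siglecg counts of 214 to 356 at Cd22 counts of 29.3 to 130.4, and in lung all 4 lie at Siglecg counts of at most 4.13.

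Cd33, a receptor of myeloid cells, was at 1006, 1089, 889.9 and 993 normalized counts in the wild-type livers and at 2119, 2061, 2407 and 1969 in the S226A livers. Every mutant value lay above the highest wild-type value, and the log2 fold change was 1.10 ± 0.17 (adjusted P = 8.73e-06). Siglece, its neighbor and an inhibitory receptor, was at 314, 383, 406 and 326 in the wild-type and at 559, 554, 691 and 416 in the S226A livers. These groups did not overlap, but the log2 fold change of 0.64 ± 0.27 did not pass (adjusted P = 0.127; 0.0261 when only the 8 libraries compared were fitted). Siglecf, the eosinophil receptor, was at 27.2, 64.1, 116.8 and 67.0 in the wild-type and at 171, 219.8, 168 and 139 in the S226A livers, again without overlap. Its log2 fold change was 1.35 ± 0.51 (adjusted P = 0.0777), and it was called with DESeq2 (adjusted P = 0.00954).

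Granulocyte genes rose in the livers in which Cd33 rose. All 6 granulocyte precursor markers and 7 of 9 mature neutrophil markers were called higher in S226A liver, and the summed neutrophil list was at 78670 to 97380 in wild-type and 225600 to 247400 in S226A livers. Of 3 monocyte markers 2 were called higher. None of 8 eosinophil markers passed either rule, and their summed level was 401.1 to 532 in wild-type and 424 to 548 in S226A livers. The part of granulocyte number in the Cd33, Siglece and Siglecf levels was not tested.

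Siglech, the activating receptor of plasmacytoid dendritic cells and microglia, was close to absent in every S226A tissue. In liver 12, 27, 19 and 24 reads were counted in the wild-type libraries and 0, 2, 0 and 0 in the S226A libraries. Over the group, wild-type libraries held 45.2 times as many reads per effective library size as S226A libraries (exact 95% interval of the counts 12.1 to 380.0). The edgeR log2 fold change was -5.37 ± 1.11 (adjusted P = 0.000734), which missed only the standard error criterion, and it was called when only the 8 libraries compared were fitted (-5.21 ± 0.95, adjusted P = 0.00224). Without S226A liver replicate 2, which held both mutant reads, the wild-type level was at least 20.6-fold higher. Across the 3 tissues, the 12 S226A libraries held 6 Siglech reads in all and 9 of them held none, while the 12 wild-type libraries of the same litters held 244 reads and 1 held none. Of 5 other plasmacytoid dendritic cell markers, 2 were lower in S226A liver by the looser rule and none was called, and their summed level was 591 to 917 in wild-type and 60.8 to 278 in S226A livers. Of 8 microglia markers 2 were called lower (Fcrls and Cx3cr1) and 3 passed the looser rule as lower, and their summed level was 2721 to 3200 in wild-type and 2266 to 3044 in S226A livers, which overlapped. The intervals of read ratios cover counting error only.

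Mag, the myelin glycoprotein, was counted with 22, 1, 9 and 3 reads in wild-type and 1, 12, 4 and 0 reads in S226A livers. The groups overlapped and the log2 fold change of -1.26 ± 0.68 did not pass (adjusted P = 0.257), with values from -2.36 to -0.31 when single libraries were left out (adjusted P from 0.0581 to 0.890).

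**Figure D4:**
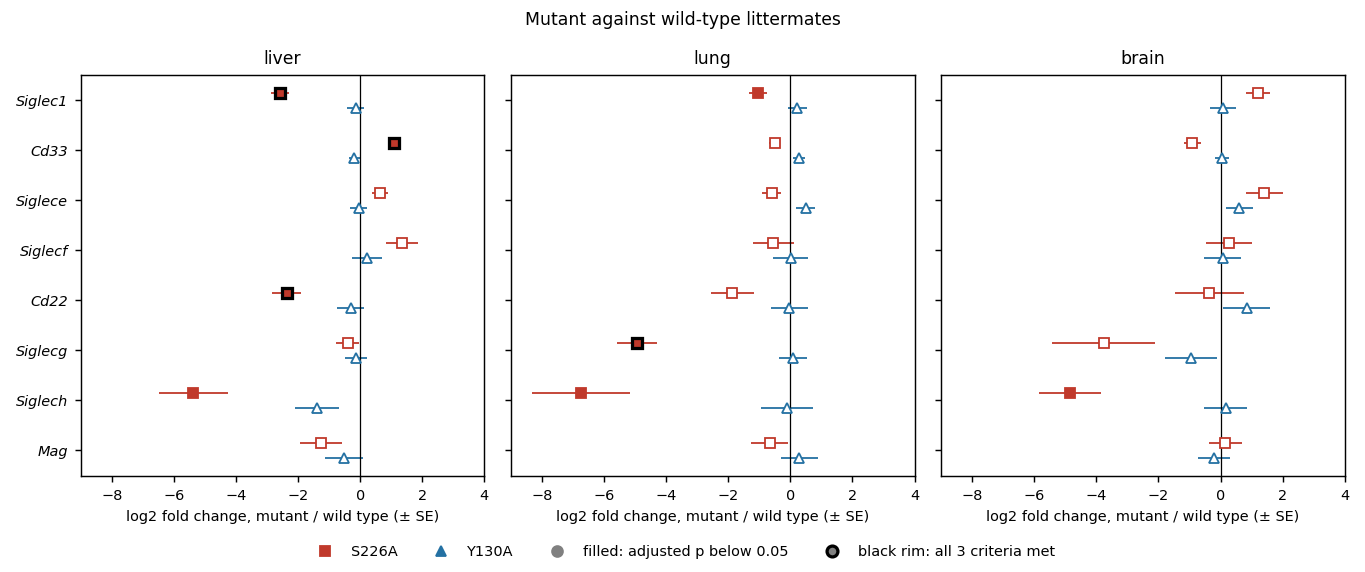
Log2 fold changes of the 8 genes with standard errors, S226A (red squares) and Y130A (blue triangles) against their wild-type littermates in liver, lung and brain; filled symbols had an adjusted P under 0.05 and black rims mark genes that met all 3 criteria. Siglec1, Cd33 and Cd22 in S226A liver and Siglecg in S226A lung carry a rim, and no Y130A symbol is filled. The Siglech symbol of S226A lung was fitted against a group at 0 reads and is no bound, nor is that of Siglecg in S226A brain.

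In S226A lung 1 of 8 genes was called, Siglecg, against 0.302% of all genes (0.154% called lower). With the looser rule Siglec1 and Siglech joined it, all lower, making 3 of 8 against 1.88% of all genes. Groups did not overlap for Siglecg alone, where 3.81% of all genes showed no overlap.

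Siglecg was counted with 43, 38, 21 and 19 reads in the wild-type lungs of the S226A litters and with 1, 0, 3 and 0 reads in the S226A lungs. Its log2 fold change was -4.94 ± 0.66 (adjusted P = 7.14e-06), and the wild-type lungs held 33.8 times as many reads per effective library size (exact 95% interval of the counts 12.9 to 126.0). The call held without any single library, but the ratio rested on few mutant reads and was 103 without S226A lung replicate 3 (log2 fold change -6.34). When only these 8 libraries were fitted the adjusted P was 0.0258 and the call was lost. Cd22 was lower as well in each litter, at 16, 14, 18 and 6 reads in wild type against 2, 12, 2 and 0 in S226A lungs, but 1 mutant lung lay within the wild-type range and the log2 fold change of -1.86 ± 0.68 did not pass (adjusted P = 0.147). Without that lung, S226A replicate 2, it was -3.43 (adjusted P = 0.0380). Of 10 B lineage markers 1 was called lower in S226A lung, Pax5, and 3 passed the looser rule. Ms4a1 was at 0 in all 4 S226A lungs. The summed level of the list was 824 to 1783 in wild-type and 950.3 to 1806 in S226A lungs, but this sum is no measure of B cells. It was 1531 to 1959 in the wild-type brains of these litters, yet 4 of the 10 markers were called lower in wild-type brain than in lung and 2 higher.

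Siglec1 was at 611, 249.7, 676 and 376 normalized counts in the wild-type lungs and at 307, 194, 246 and 177 in the S226A lungs. The groups overlapped, and the S226A value was the lower in each litter. The log2 fold change was -1.05 ± 0.29 (adjusted P = 0.0469). The looser call was kept in 2 of 8 fits that left out a single library, with adjusted P from 0.00551 (without wild-type lung replicate 2) to 0.226 (without wild-type lung replicate 3), and it was lost when only these 8 libraries were fitted (adjusted P = 0.446). Of the resident macrophage markers 1 of 11 was called lower, Cd163, and the summed level was 3682 to 5497 in wild-type and 3544 to 4491 in S226A lungs. By the looser rule 2 of these markers were lower and 1 was higher. Siglech was counted with 0, 21, 7 and 6 reads in the wild-type lungs and with no read in any of the 4 S226A lungs. The adjusted P was 0.0177, and against a limit of 3 reads over the mutant group the wild-type level was at least 12.7-fold higher. Of the 34 wild-type reads 21 came from replicate 2, without which the level was at least 6.65-fold higher. Without S226A lung replicate 2 or 4 the adjusted P was 0.0637 or 0.0544. Cd33 was at 308, 255, 438 and 358 in wild type and at 266, 208, 260.1 and 222 in S226A lungs, lower in each litter without passing (log2 fold change -0.50 ± 0.18, adjusted P = 0.137). Siglece, Siglecf and Mag had log2 fold changes of -0.61, -0.55 and -0.66, and their lowest adjusted P was 0.318. The summed eosinophil list was at 264 to 545 in wild-type and 79.8 to 199.9 in S226A lungs, with 1 of 8 members called lower (Ear2), while the summed plasmacytoid dendritic cell list was at 98.8 to 256 and 70.8 to 306 with none called. The microglia list, which Siglech also marks, was at 2356 to 3089 in wild-type and 1866 to 2142 in S226A lungs, without overlap and with 2 of 8 members called lower (Fcrls and Cx3cr1). Neutrophil markers were higher in this tissue too, with 4 of 9 called and a summed level of 1112 to 2405 in wild-type and 4391 to 5858 in S226A lungs.

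In S226A brain none of the 8 genes was called by edgeR (0.124% of all genes), and 5 had an unadjusted P under 0.05 (2.27% of all genes), among them Siglecg with 5 reads in all. Siglech alone passed the looser rule (1 of 8 against 0.243% of all genes), and it met all 3 criteria with DESeq2. It was counted with 20, 29, 41 and 38 reads in the wild-type brains and with 1, 3, 0 and 0 reads in the S226A brains. The log2 fold change was -4.85 ± 0.99 (adjusted P = 0.0103), and wild-type brains held 31.7 times as many reads per effective library size (exact 95% interval of the counts 12.1 to 118.0). The adjusted P was over 0.05 without S226A brain replicate 1, 3 or 4 (0.0603, 0.0749 and 0.0716) and 0.000448 when only the 8 libraries were fitted. Without S226A brain replicate 2 the ratio was 95.1 (log2 fold change -6.20). Of 8 microglia markers, 4 were called lower in S226A brain (5 by the looser rule), led by Fcrls, Cx3cr1 and P2ry12, and the summed level was 1934 to 2304 in wild-type and 1089 to 1185 in S226A brains. The plasmacytoid dendritic cell list, summed, was at 909 to 1155 in wild-type and 869 to 1006 in S226A brains, and none of its 5 members passed either rule. Between wild-type brain and lung 1 member was called higher in brain and 3 lower (median log2 difference -4.25). The sum is therefore no measure of these cells in brain. The part of microglia number in the Siglech level was not tested.

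Siglec1 went the other way in brain. It was at 47.2, 17.2, 35.4 and 26.3 normalized counts in the wild-type brains and at 93.1, 55.4, 58.1 and 84.2 in the S226A brains. The groups did not overlap, as for 2.48% of all genes, yet the log2 fold change of 1.21 ± 0.38 did not pass after adjustment (unadjusted P = 0.00272, adjusted P = 0.547). The sum of the resident macrophage list was lower in mutants, at 2421 to 2499 in wild-type and 1720 to 2003 in S226A brains. Its 11 members were mixed, with 1 called lower and 1 called higher and a median log2 fold change of -0.22. By the looser rule 4 were lower and 1 was higher. The part of this list in the Siglec1 level was not tested. Cd33 was at 39.8, 27.1, 46.8 and 30.6 in wild-type and at 25.9, 18.5, 11.1 and 20.7 in S226A brains, also without overlap and also not past the test (log2 fold change -0.91 ± 0.27, adjusted P = 0.335). Siglece was counted with 0 to 3 reads in wild-type and 2 to 9 reads in S226A brains, and Siglecf with 0 to 7 and 1 to 6. Cd22 had 0 to 6 and 0 to 3 reads. Siglecg had 3, 0, 2 and 0 reads in wild-type and none in S226A brains, too few for a fold change. Mag, the member with the highest wild-type level in this tissue, was at 64.6, 49.2, 67.6 and 78.8 normalized counts in wild-type and 83.8, 78.4, 72.9 and 54.9 in S226A brains (log2 fold change 0.16 ± 0.53, adjusted P = 1). None of the 10 oligodendrocyte markers tested passed either rule in S226A brain.

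**Figure D5:**
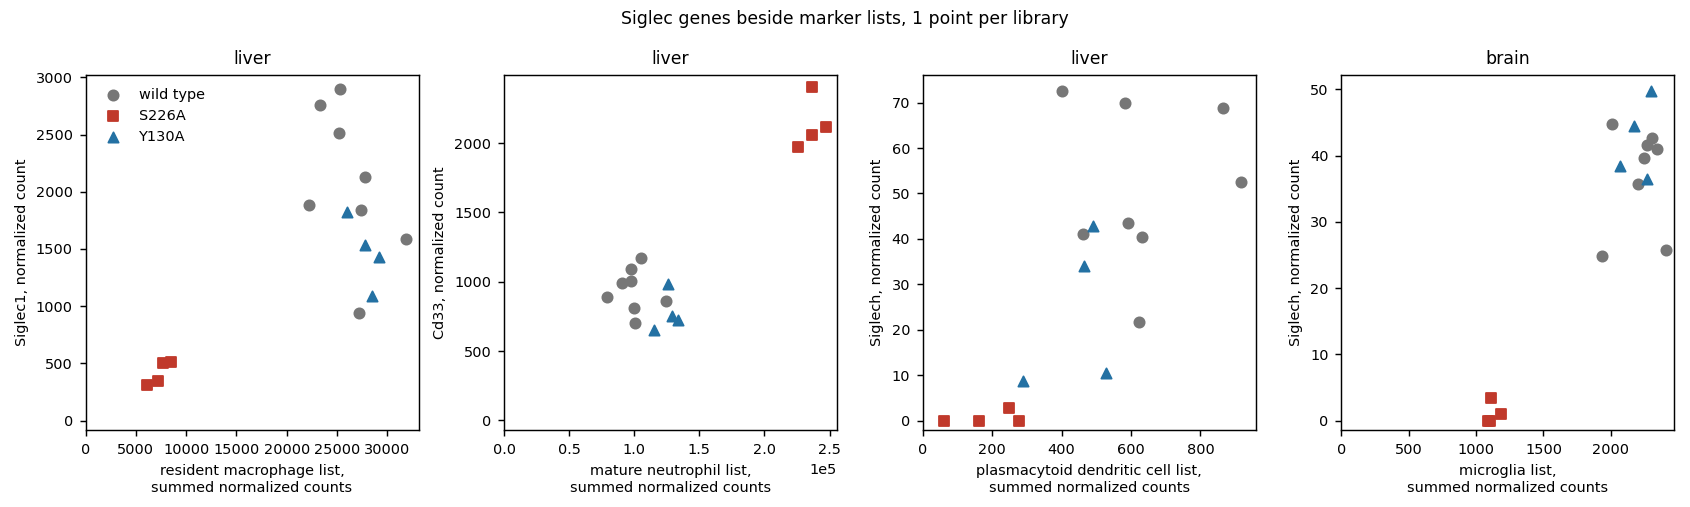
Siglec1, Cd33 and Siglech in liver and Siglech in brain (vertical, normalized counts) against the summed normalized counts of the marker list named under each panel (horizontal); each point is 1 library, with wild type of both litter sets in grey, S226A in red and Y130A in blue. The S226A libraries lie at 6115 to 8511 on the macrophage axis and 225600 to 247400 on the neutrophil axis, apart from all other livers.

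The Y130A allele was made to keep H3.3 binding and lose Atrx binding, though the study grants that some Atrx binding may remain. In the Y130A tissues no Siglec gene was called by edgeR in liver, lung or brain (0.077%, 0.0% and 0.0% of all genes). None had an unadjusted P under 0.05 (9.22%, 2.92% and 2.22% of all genes), and none was called by DESeq2. In all 3 tissues the 8 genes overlapped with their wild-type littermates, while 2.35%, 4.15% and 4.74% of all genes did not. Siglec1 was at 1086, 1432, 1826 and 1538 normalized counts in Y130A livers against 944, 1588, 1844 and 2133 in wild type (log2 fold change -0.15 ± 0.27). Cd22 had a log2 fold change of -0.30 ± 0.43, Cd33 of -0.19 ± 0.17 and Siglecf of 0.22 ± 0.49 in Y130A liver. Siglech had the lowest P there, with 49, 34, 10 and 9 reads in Y130A against 81, 89, 40 and 67 in wild-type livers (log2 fold change -1.39 ± 0.71, unadjusted P = 0.0576, adjusted P = 0.571). Both lists are in litter order, and Siglech was lower than in the wild-type littermate in each of the 4 litters, although the group ranges overlapped. Wild-type livers held 2.59 times as many reads per effective library size (exact 95% interval of the counts 2.06 to 3.28, counting error only), and with the litter as a block the log2 fold change was -1.61 ± 0.68 (adjusted P = 0.395). Without the Y130A liver that carried squamous transcripts, replicate 1, the unblocked log2 fold change was -1.83 (adjusted P = 0.476). The summed plasmacytoid dendritic cell list was at 289 to 528 in Y130A livers and 400.4 to 865 in their wild-type littermates. In Y130A lung the Siglecg reads were 32, 43, 14 and 48, against 30, 34 and 37 in wild type. In Y130A brain Siglech kept 66, 90, 69 and 74 reads, against 82, 78, 49 and 71 in wild type. Mag was at 51.2, 87.9, 51.3 and 56.5 normalized counts in Y130A brains and 62.8, 73.6, 82.2 and 65.3 in wild type. In Y130A lung Siglec1 was at 154, 252, 223 and 184 normalized counts, which overlapped with its 3 littermates (log2 fold change 0.23 ± 0.31), and Siglece had a log2 fold change of 0.50 ± 0.30 there.

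Whether the 2 alleles differed was tested on the difference of their log2 fold changes. In liver 2 of 8 genes were called (1.47% of all genes), Siglec1 with a difference of -2.44 ± 0.39 (adjusted P = 4.97e-05) and Cd33 with 1.29 ± 0.24 (adjusted P = 0.000465). Cd22 had a difference of -2.06 ± 0.63 (adjusted P = 0.0411), which stayed under 0.05 in 5 of 16 fits that left out a single library (adjusted P from 0.0219 to 0.0953). In lung 1 of 8 was called (0.077% of all genes), Siglecg with -5.02 ± 0.83 (adjusted P = 0.00108), and this call was lost when only the lung libraries were fitted. In brain none was called (0.0474% of all genes) and 1, Siglech, was called when only the brain libraries were fitted (difference -5.01 ± 1.21, adjusted P = 0.167 over all libraries and 0.000163 with brain libraries alone). Siglech differed between the alleles by -3.98 in liver without passing (adjusted P = 0.0797), and in lung, where all 4 S226A libraries were at 0, the difference has no size (adjusted P = 0.166). Each allele was compared within its own litters, so allele and litter set cannot be told apart in these differences.

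Whether the S226A effect differed between tissues was tested in the same way. Between lung and liver 2 of 8 genes were called (1.59% of all genes): Siglecg had a difference of -4.54 ± 0.79 (adjusted P = 0.000125), and Cd33 of -1.61 ± 0.25 (adjusted P = 1.48e-05). Between brain and liver 2 were called (1.02% of all genes), Siglec1 with 3.80 ± 0.47 (adjusted P = 5.07e-07) and Cd33 with -2.01 ± 0.32 (adjusted P = 3.25e-05). Between brain and lung none was called (0.0237% of all genes), and Siglec1 had a difference of 2.26 ± 0.48 (adjusted P = 0.0257). This stayed under 0.05 in 7 of 16 fits that left out a single library (adjusted P from 0.00789 to 0.0974) and was lost when only the libraries compared were fitted (adjusted P = 0.102). Between lung and liver Siglec1 had a difference of 1.54 ± 0.40 (adjusted P = 0.0127), and 3 of 16 fits that left out a single library called it. With the litter as a block Siglec1 was called there as well, so 3 genes were called between lung and liver. Siglech, low in all 3 S226A tissues, gave a difference of 0.52 ± 1.73 between brain and liver, a standard error that leaves wide room in either direction, and its differences with lung have no size because all 4 S226A lungs were at 0. In the S226A litters the liver, lung and brain of a replicate came from the same embryo, except for wild-type replicate 4, whose lung came from another embryo. No embryo term was fitted for these differences between tissues.

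The wild-type embryos of the 2 litter sets also differed in lung. Siglec1 was lower in wild-type lungs from the Y130A litters, at 123, 199.8 and 196 normalized counts, than in those of the S226A litters (log2 difference -1.47 ± 0.32, adjusted P = 0.000806), and so was Cd33 at 149, 139.6 and 217 (-1.01 ± 0.19, adjusted P = 0.000256). These were 2 of 8 genes, against 1.62% of all genes, and both calls were lost when only the libraries compared were fitted (adjusted P = 0.0526 for each). The count was 1 without wild-type lung replicate 3 or 4 of the S226A litters or replicate 2 of the Y130A litters, and 0 without replicate 1 of the Y130A litters. No member was called between the wild-type livers (0.414% of all genes) or brains (0.101% of all genes), where 1 and 2 members had an unadjusted P under 0.05 (28.0% and 18.4% of all genes).

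Among the genes that act with Siglecs, Ptpn6, the phosphatase Shp1 recruited by the inhibitory members, was higher in S226A liver by the looser rule (log2 fold change 0.77 ± 0.11, adjusted P = 2.84e-06), as was the adaptor Tyrobp (0.59 ± 0.16, adjusted P = 0.0105). In S226A brain Tyrobp, the partner of Siglech, was called lower, at 51.0 ± 15.8 normalized counts against 102 ± 10.7 in wild type (log2 fold change -1.01 ± 0.20, adjusted P = 0.00747, n = 4 each). Ptpn11 and Inpp5d did not pass in any mutant tissue, with log2 fold changes from -0.38 to 0.16, nor did the adaptor Hcst, at 1.55 ± 0.69 in S226A liver (adjusted P = 0.147). Among carriers of Siglec ligands, the glycoproteins Ptprc (0.72 ± 0.14) and Spn (0.65 ± 0.18) were higher in S226A liver by the looser rule, and Cd24a, a ligand carrier of Siglecg, was lower (-0.36 ± 0.11, adjusted P = 0.0279). B4galnt1, which builds the gangliosides bound by Mag, was 0.36 ± 0.10 higher in S226A liver and 0.83 ± 0.12 lower in S226A lung on the log2 scale (adjusted P = 0.0170 and 3.37e-05). Rtn4r, a neuronal receptor that binds Mag, was lower in S226A lung by the looser rule, at 0.69 ± 1.38 normalized counts against 13.6 ± 9.98 in wild type. None of these 12 genes, which include St6gal1 and Cmah, passed either rule in a Y130A tissue (lowest adjusted P = 0.606).

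Sialic acid ligands are built by synthesis enzymes and sialyltransferases and trimmed by sialidases. Of 6 sialic acid synthesis genes none was called in any S226A tissue, and 1 was higher and 1 lower by the looser rule in S226A liver (11.7% of all genes passed it there). Their summed level was 11660 to 12620 in wild-type and 10370 to 11110 in S226A livers, without overlap. Of 18 gene IDs for sialyltransferases (St6galnac2 has 2 IDs), 1 was called lower in S226A liver (0.847% of all genes) and none in lung or brain. It was 1 of the 2 St6galnac2 IDs, with a log2 fold change of -1.97 ± 0.49 (adjusted P = 0.00503), and the other ID was not called. The summed sialyltransferase level was 29180 to 31150 in wild-type and 26200 to 28350 in S226A livers, again without overlap. St6gal1, which makes the ligand of Cd22, had log2 fold changes of -0.07, 0.01 and 0.01 in S226A liver, lung and brain. Cmah, which makes N-glycolylneuraminic acid, had -0.36, -0.44 and -0.31 without passing (lowest adjusted P = 0.428). Of 3 sialidases tested none was called and 1 was higher in S226A liver by the looser rule.

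The genes whose levels ran most like each member over the 47 libraries mostly followed tissue, since liver, lung and brain set the main spread, and the correlations are a description only. For Siglec1 these were Vps13b, Ccnl2 and Pyroxd2 (Pearson r of log2 normalized counts 0.95, 0.95 and 0.95), and for Cd22 Adgre1, Bank1 and Tlk1 (0.95, 0.94 and 0.94). Cd33 ran with Dock8, Ttc7 and Edem1 (0.99, 0.99 and 0.98), Siglece with Tspan32, Cd177 and Il17ra (0.98, 0.98 and 0.98), and Siglecf with Pla1a, Proc and A1cf (0.93, 0.93 and 0.93). Siglecg ran with Lcp2, Pik3ap1 and Laptm5 (0.96, 0.96 and 0.96), and Mag with Zfp667, Lypd6 and Kbtbd3 (0.90, 0.88 and 0.88). Siglech had no close companion: Il18, Frat2 and Arf4 reached 0.72, 0.68 and 0.68.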

How the data were processed

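RNA-seq of mouse E18.5 liver, lung and brain gave 47 libraries in 12 groups. The deposited table holds raw read counts per gene, which the authors made with STAR (2.6.0b) and GRCm38, as the submitters' processing notes and the study's methods state; the notes also name Trim Galore (0.6.5). No library column was left unused, and 1 wild-type lung was removed by the authors as an outlier and was not analysed here.

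Groups and litters were taken from the sample labels. Counts were tested with edgeR 4.0.16 (R 4.3.3): genes with too few counts were dropped (filterByExpr, minimum count 10 and minimum total 15), TMM factors were set, and the quasi-likelihood test was fitted to all 47 libraries with 1 coefficient per group. P values were Benjamini-Hochberg adjusted over all 16892 genes tested. Totals of 15722147 to 54885020 reads mean that a gene with few reads is known only within counting error. Between replicates, chi-square per degree of freedom was at least 3.82, so replicates differed by more than sampling noise. Gene positions and exon lengths came from GENCODE M21 (GRCm38), promoters from RefSeq. The titles name the litter, and the study matched mutants and wild types by litter, so a fit with litter as a block was also made. Residuals of littermates correlated above 0.1 in 11 of 23 pairs. Correlations used log2(normalized count + 1).

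The 8 genes and all lists were chosen with earlier results of these data known. The text names all 8 genes in every comparison, 12 fixed partner genes, at most the 3 called genes of each other list with the largest change, and the 3 genes most like each member. Alternatives were RLE factors, no filter, only the libraries compared, the litter block, DESeq2 1.42.0, thinned Y130A litters, the looser rule and leaving out each library. Leaving out libraries from the read ratios was chosen after seeing the data.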

Additional observations from a re-analysis of the deposited data

Results flagged for a closer look

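Of 60 sets of group values with 4 libraries and a mean of at least 10, 3 had 1 library farther from the rest than Dixon's limit for 4 values, which chance gives in about 1 of 20 sets. Mag in Y130A brain had 1 library at 87.9 normalized counts (Dixon ratio 0.855). Siglecg in Y130A liver had 1 library at 319 (ratio 0.905). Siglech in the wild-type livers of the Y130A litters had 1 library at 41.0 (ratio 0.883).

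The effects of the 2 alleles differed by a test of the difference itself for Siglec1 in liver (-2.44 on the log2 scale), Cd33 in liver (1.29) and Siglecg in lung (-5.02). The S226A effect differed between lung and liver for Siglecg (-4.54) and Cd33 (-1.61), and between brain and liver for Siglec1 (3.80) and Cd33 (-2.01).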

How the results depend on the processing

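Of 331 counts of called Siglec genes recomputed under the alternatives, 314 stayed within 1.5 times the reported count. In S226A lung the count of 1 became 3 with adjusted P under 0.05 alone and 0 with only the libraries compared, and it ranged from 1 to 2 when single libraries were left out. In S226A brain the count of 0 became 1 with adjusted P under 0.05 alone, with RLE size factors, with only the libraries compared and with DESeq2. The difference between alleles in lung went from 1 to 0, and in brain from 0 to 1, with only the libraries compared. The difference of the S226A effect between brain and lung went from 0 to 1 with adjusted P under 0.05 alone and with DESeq2, and ranged from 0 to 1 when single libraries were left out. Between the wild-type lungs of the 2 litter sets the count of 2 became 0 with only the libraries compared and ranged from 0 to 2 without single libraries. The cause of these moves was not tested. The litter block left the counts of the 6 mutant comparisons at 3, 1, 0, 0, 0 and 0 and changed no other call than that of Siglec1 between lung and liver, and the embryo block lost that of Siglecf between wild-type brain and lung. Of 605 recomputed log2 fold changes of single genes in the mutant comparisons, 0 changed sign with a call, 1 lost its call and 6 gained one. Low counts limit Siglecf, Siglece, Cd22 and Siglecg in brain, where every library of the S226A litters held at most 9 reads of each.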
